A study of Homo sapiens with 4 samples.

Results

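The linker histone H1 variants were examined in OVCAR-3, a long-established line of human ovarian cancer cells, as the 9 genes H1-1, H1-2, H1-3, H1-4, H1-5, H1-6, H1-7, H1-8 and H1-10. They were chosen by name, from the gene symbols and older aliases (HIST1H1A and its relatives, H1FNT, H1FOO and H1FX) that the platform annotation gives, and each was measured on 1 transcript cluster, the array's unit for a gene, of 18417 genes measured on clusters of their own. RNA came from cells transfected with a vector lacking the H1.3 insert (2 arrays, called vector only) and from cells overexpressing human H1.3 (2 arrays, called H1.3), all on the OVCAR-3 background, and the series asked which transcripts change with H1.3 overexpression. The replicates are labelled biological. The labels do not say whether they came from separate transfections, clones or pooled cells, nor which promoter drove the insert, so the p-values measure only the spread between these arrays, which may be technical.

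Linker histones bind the nucleosome where DNA enters and leaves it and help compact chromatin. H1-1 to H1-5 are the replication-dependent somatic variants, made mainly in S phase from intronless genes whose mRNAs end in a stem-loop in place of a poly(A) tail. H1-10 is a somatic variant made outside S phase as well, H1-6 and H1-7 are testis variants, and H1-8 is the oocyte variant. H1-3 encodes the protein H1.3 that the cells were given.

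The variants differ in the stretch just before their start sites, which is shown here because most of the histone-cluster variants share an arrangement there that other genes rarely have. The lines give the 130 bases before the start for the 5 replication-dependent genes, for H1-6 and, as a contrast, for H1-10, read 5′ to 3′ on the strand of the gene. They come from RefSeq on GRCh38.p14, where all 9 genes were found. Capitals mark the H1 box AAACACA, the CCAAT box, a binding site of the factor NF-Y, and the TATA element TATAA where they lie on the printed strand. The windows are chr6:26017788-26017917 (minus strand) for H1-1, chr6:26056471-26056600 (minus strand) for H1-2, chr6:26234988-26235117 (minus strand) for H1-3, chr6:26156199-26156328 (plus strand) for H1-4, chr6:27867589-27867718 (minus strand) for H1-5, chr6:26108136-26108265 (minus strand) for H1-6 and chr3:129316287-129316416 (minus strand) for H1-10.
H1-1: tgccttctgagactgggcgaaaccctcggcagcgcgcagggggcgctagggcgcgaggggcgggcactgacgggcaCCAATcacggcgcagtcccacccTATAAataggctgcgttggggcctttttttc
H1-2: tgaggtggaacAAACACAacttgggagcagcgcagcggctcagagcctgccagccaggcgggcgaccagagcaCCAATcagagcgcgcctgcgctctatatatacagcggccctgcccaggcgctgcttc
H1-3: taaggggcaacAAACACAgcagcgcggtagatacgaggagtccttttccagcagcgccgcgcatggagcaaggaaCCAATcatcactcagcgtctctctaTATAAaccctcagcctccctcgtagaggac
H1-4: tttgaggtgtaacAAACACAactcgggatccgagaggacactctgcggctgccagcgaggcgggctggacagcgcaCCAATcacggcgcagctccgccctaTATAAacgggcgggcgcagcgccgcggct
H1-5: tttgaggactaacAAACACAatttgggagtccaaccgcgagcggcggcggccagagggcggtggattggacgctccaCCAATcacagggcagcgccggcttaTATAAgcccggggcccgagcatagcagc
H1-6: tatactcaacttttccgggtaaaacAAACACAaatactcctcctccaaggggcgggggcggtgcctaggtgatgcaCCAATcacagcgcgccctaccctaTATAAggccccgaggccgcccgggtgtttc
H1-10: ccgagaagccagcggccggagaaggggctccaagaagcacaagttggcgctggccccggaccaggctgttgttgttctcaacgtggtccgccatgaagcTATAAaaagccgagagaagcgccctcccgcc

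The CCAAT box started between 53 and 57 bases before the start site in the 6 genes of chromosome 6, which include the testis gene H1-6. The H1 box started 117 to 119 bases before it in H1-2, H1-3, H1-4 and H1-5, and 105 bases before it in H1-6. In H1-1 and H1-7 the H1 box was found only on the opposite strand, 183 and 82 bases before the start. In H1-10 only the TATA element was found. Over the 250 bases before the start and both strands, the H1 box was in 7 of the 10 windows of the 9 genes. H1-8 has a further window for another start. The H1 box was in 4.82% of all 35116 RefSeq windows of that length and in 0 of 63 windows of core histone genes. The CCAAT box was in 8 of the 10 and the TATA element in 7, against 32.0% and 18.9% of all windows and 84.1% and 92.1% of core histone windows. Both boxes at these distances, with limits set after the windows had been seen (the H1 box 130 to 100 and the CCAAT box 60 to 50 bases before the start, on the printed strand), occurred in 7 of the 35116 windows. Of these, 5 belonged to the genes H1-2 to H1-6 and the other two to CRY1, a circadian repressor, and ECT2, a cytokinesis factor. A match describes the letters and not the use of a site.

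**Figure D1:**
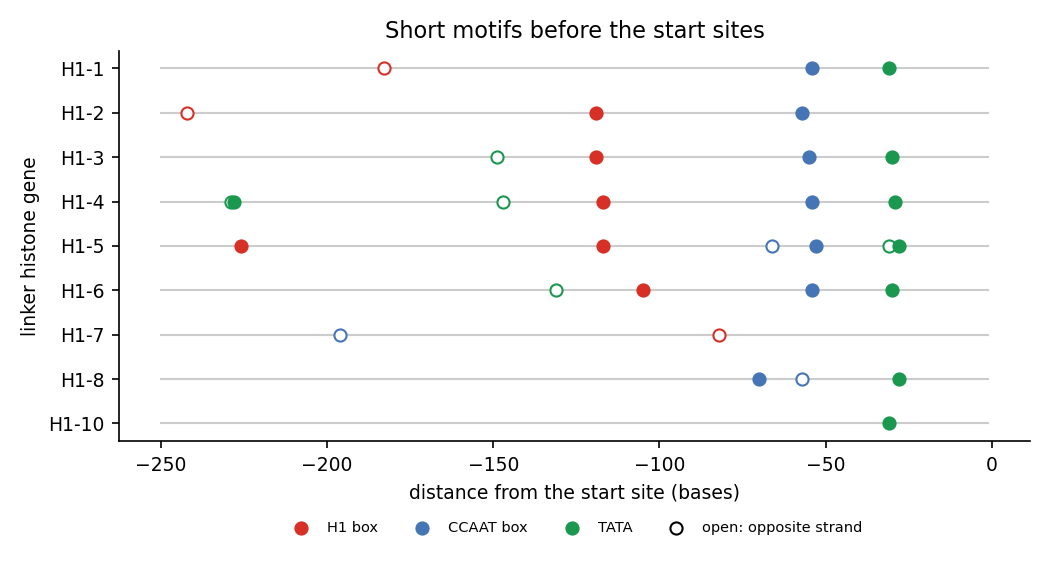
Positions of 3 short motifs in the 250 bases before the start site of each linker histone gene (x axis, bases from the start; for H1-8 the window with matches is drawn). Filled circles lie on the strand of the gene and open circles on the opposite strand; the CCAAT box lines up 53 to 57 bases before the start in H1-1 to H1-6.

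The values are log2 signals, so a difference of 1 is a doubling. The median per array lay between 6.21 and 6.27, and Pearson's r between arrays, across named clusters that are not independent replicates, was 0.987 to 0.993. The cell type label was checked against markers: the median level over 16 epithelial and Muellerian markers was 10.23 to 10.51 per array, with PAX8, the lineage factor of this tumour type, at 10.97 to 11.20 and the keratin gene KRT8 at 12.80 to 13.13. Fibroblast, leukocyte and endothelial marker lists had medians of 4.97 to 5.31. Their highest members by mean level were COL1A1 at 7.51, NKG7 at 6.84 and CLDN5 at 6.75, so the lists overlapped. COL1A1 lay above the epithelial-list member FOLR1, at a mean of 6.16. The estrogen receptor gene ESR1, at 4.68 to 5.04, was the epithelial-list member of lowest level. Of the 16 epithelial markers 2 fell, MECOM with a log2 difference of -1.58 and FOLR1 with one of -1.26, at limma adjusted p of 0.0266 and 0.0291, where 0.264% of the 21214 named clusters were called lower.

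Among the variants, H1-4 gave by far the strongest signal, and the other replication-dependent genes were spread over most of the range of the array. H1-4 read 12.04 and 11.77 with vector only and 12.26 and 11.70 with H1.3, at the 99.0 to 99.6 percentile of the 21214 named clusters of each array. H1-2 read 9.65 and 9.34 against 9.58 and 9.45, at the 88.3 to 91.0 percentile. H1-10 read 9.43 and 9.29 against 9.18 and 9.22, at the 86.9 to 89.1 percentile. These variants and H1-3 lay above the median of the named clusters on all 4 arrays.

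H1-5 and H1-1 were the dimmest. H1-5 read 5.19 and 5.16 with vector only and 5.46 and 5.25 with H1.3, at the 22.9 to 26.2 percentile. H1-1 read 4.56 and 4.55 against 5.09 and 4.62, at the 15.4 to 21 percentile. For both genes the H1.3 arrays read above the vector only arrays, and the gap rested mostly on H1.3 replicate 1.

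The germline variants lay near or below the middle of the array. H1-7 read 6.80 and 6.92 with vector only and 7.22 and 6.92 with H1.3. H1-8 read 6.43 and 6.49 against 6.74 and 6.27, on all 4 arrays lower than 6.84, the median over the 21214 named clusters, as were H1-5 and H1-1. The 14 testis germ cell markers had a median level of 4.51, from 3.09 for the meiotic gene SYCP3 to 6.30 for the acrosomal protease gene ACR, and the 11 oocyte markers measured had a median of 4.57.

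Over all 4 arrays the order of signal was H1-4 (11.94 ± 0.26, SD, n = 4), H1-2 (9.51 ± 0.14), H1-10 (9.28 ± 0.11), H1-3 (7.92 ± 0.51), H1-7 (6.97 ± 0.18), H1-6 (6.75 ± 0.43), H1-8 (6.48 ± 0.20), H1-5 (5.27 ± 0.14) and H1-1 (4.71 ± 0.26). The values of H1-2 and H1-10 overlapped across arrays, as did those of H1-7 and H1-6 and those of H1-6 and H1-8. Within each of the 4 arrays H1-2 read above H1-10, while the order within the pairs H1-7 and H1-6, and H1-6 and H1-8, changed between arrays. The other neighbours did not overlap: H1-4 stood 2.05 above the highest value of H1-2, and H1-5 only 0.07 above the highest of H1-1. H1-6 was at place 7 in the vector only arrays and at place 5 in the H1.3 arrays, while the upper 4 and lower 2 places were the same in both groups. These are array signals, which depend on each cluster's probes and are not scaled to length, so the order is one of signal and not of transcript number. The sources used here do not give how the label was primed, which bears on mRNAs with no poly(A) tail.

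**Figure D2:**
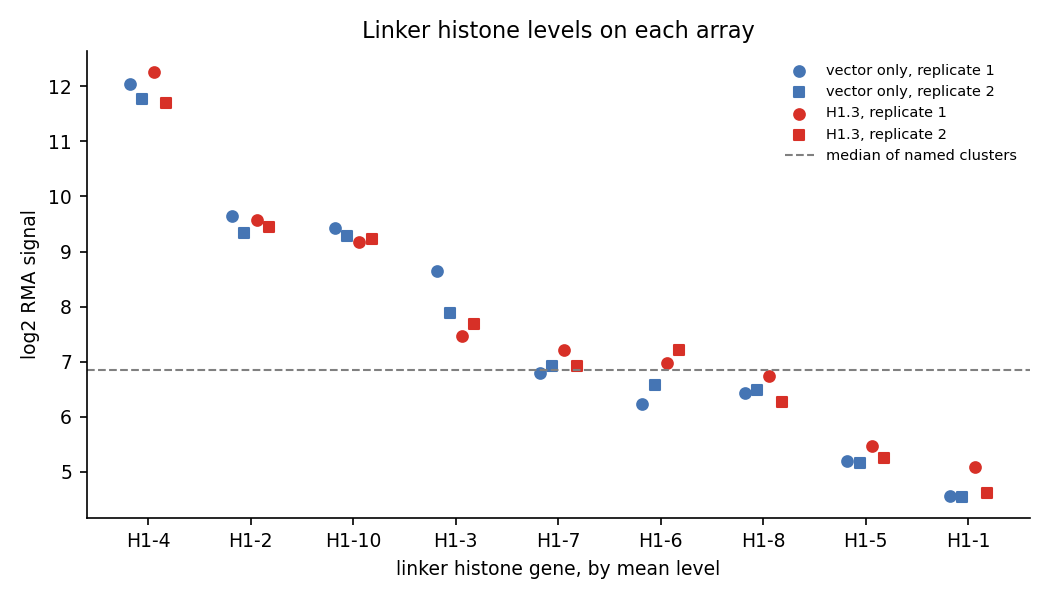
Log2 RMA signal (y axis) of each linker histone gene on the 4 arrays, ordered by mean level; blue marks are vector only and red marks H1.3, circles replicate 1 and squares replicate 2, and the dashed line is the median of the named clusters, 6.84. H1-4 lies between 11.70 and 12.26, and H1-3 is the variant with the widest vector only replicates, at 8.65 and 7.88.

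The arrays labelled H1.3 did not show a higher H1-3 signal. H1-3 read 8.65 and 7.88 with vector only and 7.47 and 7.69 with H1.3, so that the arrays labelled as overexpressing H1.3 gave the lowest values of the 4 and the groups did not overlap. It went from the 79.5 and 67.6 percentile to the 61.2 and 64.4 percentile. The difference, H1.3 minus vector only, was -0.69 ± 0.24 (SE), with a 95% interval of -1.25 to -0.12 that is not adjusted for the number of clusters and an adjusted p of 0.319. The size rested on vector only replicate 1: the difference was -0.30 without it and -1.07 without vector only replicate 2. Neither the extent of the insert nor the probe positions of this cluster are given in the sources used here, so how far it reads the introduced copy was not tested. All directions refer to the arrays as labelled.

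Set against its replication-dependent relatives on the same array, H1-3 was lower with H1.3, a measure that reuses the H1-3 values above and is not separate support. The log2 level of H1-3 minus the mean level of H1-1, H1-2, H1-4 and H1-5 was 0.79 and 0.18 with vector only and -0.63 and -0.07 with H1.3. The groups did not overlap, and the means differed by -0.83 with an SD of 0.42 within groups (n = 2 each). Leaving out vector only replicate 1 gave -0.52 and leaving out vector only replicate 2 gave -1.14, with the H1.3 arrays left out in turn between these. A value within an array shows unequal change and does not say which gene changed. Among the reference genes the dimmest, H1-1 and H1-5, differed by 0.30 and 0.18, and H1-2 and H1-4 by 0.02 and 0.08. The dim genes thus weigh most in the step from the H1-3 difference to -0.83.

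H1-6, the testis variant, differed in the other direction. It read 6.24 and 6.57 with vector only and 6.97 and 7.21 with H1.3, so that both H1.3 arrays lay above both vector only arrays. The difference was 0.69 ± 0.16 (SE), with a 95% interval of 0.32 to 1.05 and an adjusted p of 0.131, the smallest among the variants. It lay between 0.52 and 0.85 when any 1 array was left out. Of the 14 testis germ cell markers, 0 were called in limma, where 0.504% of the named clusters were called. An unadjusted limma p under 0.05 was found for 0 of them, against 11.5% of the clusters. Their differences ran from -0.13 to 0.18 with a median of 0.12. LDHC, the sperm lactate dehydrogenase, and SPACA1, an acrosomal membrane protein gene, both differed by 0.18, with adjusted p of 0.654 and 0.664. Of the 11 oocyte markers, 0 were called in limma and 1 had an unadjusted p under 0.05, beside the same shares. It was GDF9, an oocyte growth factor, at 0.36. The median difference of the oocyte markers was 0.03.

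In all, 0 of the 9 variants were called at an adjusted p under 0.05 in limma, where 0.504% of the 21214 named clusters were called. H1-3 and H1-6, 2 of 9, had an unadjusted p under 0.05, as did 11.5% of the clusters. The groups did not overlap for 5 of 9 (H1-1, H1-3, H1-5, H1-6 and H1-10), against 40.6% of the clusters. The difference was above 0 for 7 of 9, against 53.2% of all genes, and the median was 0.08, against 0.02 over all genes. That median over the variants became -0.05 with H1.3 replicate 1 left out and 0.29 with H1.3 replicate 2 left out.

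For the other 7 variants the 95% interval of the difference held 0. The differences were 0.08 ± 0.20 (SE) for H1-4, with an interval of -0.39 to 0.54, and 0.02 ± 0.14 for H1-2, with an interval of -0.32 to 0.36. For H1-10 the interval ran from -0.44 to 0.12. For H1-1 the interval ran from -0.09 to 0.69, for H1-5 from -0.12 to 0.48, for H1-7 from -0.12 to 0.54 and for H1-8 from -0.35 to 0.44. A doubling or halving of signal thus lay outside each of these 7 intervals, which are not adjusted for the number of clusters. H1.3 replicate 1 read above the other 3 arrays for 5 of the 9 variants (H1-1, H1-4, H1-5, H1-7 and H1-8), and without it the differences of H1-1, H1-5 and H1-7 were 0.07, 0.08 and 0.06, and those of H1-4 and H1-8 were -0.21 and -0.19.

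**Figure D3:**
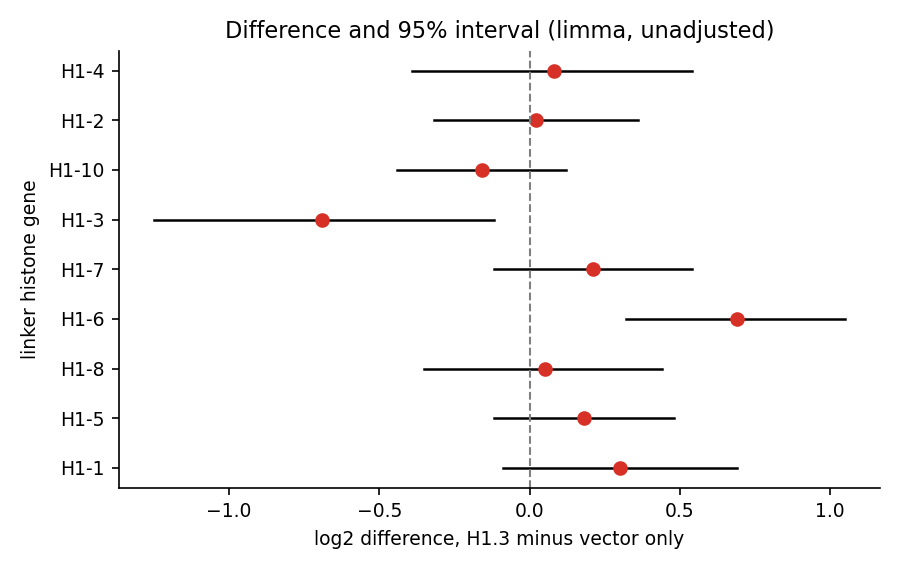
Log2 difference, H1.3 minus vector only (x axis), with the 95% interval of the limma fit, not adjusted for the number of clusters, for each linker histone gene. Points are the differences; the interval of H1-3 lies below 0 (-1.25 to -0.12), that of H1-6 above it (0.32 to 1.05), and those of the other 7 genes hold 0.

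The replicates of a group differed from each other in the same direction for much of the histone complement. H1-4 was higher in replicate 1 than in replicate 2 by 0.27 in the vector only group and by 0.56 in the H1.3 group, and H1-2 by 0.31 and 0.13. H1-3 went with this only in the vector only group, with 0.77 against -0.22, and H1-6 was lower in replicate 1 in both groups, by -0.33 and -0.24. Both arrays numbered 1 were the higher ones for 4 of the 9 variants, for 36 of the 52 core histone genes measured and for 24 of the 30 S phase and cell cycle genes measured, against 25% of all genes. With arrays set to one median, a check added after the values were seen, these counts were 4, 35 and 19, and after a second quantile normalization 5, 35 and 23. The median of replicate 1 minus replicate 2 over the core histone genes was 0.32 in the vector only group and 0.28 in the H1.3 group. The sources used here do not give whether the numbers mark a shared culture or day, and the part of S phase in these differences was not tested.

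**Figure D4:**
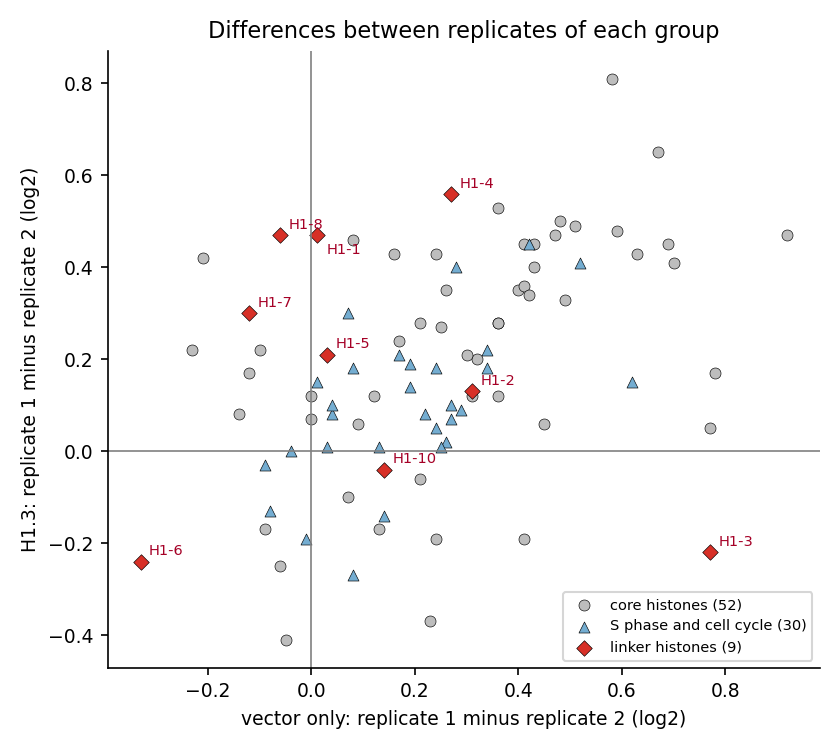
Replicate 1 minus replicate 2 on the log2 scale in the vector only group (x axis) and in the H1.3 group (y axis), 1 mark per gene, for 9 linker histones, 52 core histones and 30 S phase and cell cycle genes. Most core histones (36) lie in the upper right, as H1-2 and H1-4 do, while H1-3 lies at 0.77 and -0.22 and H1-6 at -0.33 and -0.24.

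The genes around H1-3 and H1-6 had median differences close to that of all genes. Of the 9 variants, 6 lie on chromosome 6 among core histone genes, per RefSeq, H1-8 and H1-10 on chromosome 3 and H1-7 on chromosome 12. Over the 30 nearest measured protein-coding genes, 15 on each side, the median difference was 0.05 for H1-3 and 0.05 for H1-6. It ran from -0.03 to 0.07 over all 9. Of the 30 neighbours, 22 lay above 0 for H1-3 and 20 for H1-6, against 53.2% of all genes. Over all 9 variants that count ran from 12 for H1-8 to 24 for H1-7. Variants that lie close together can share neighbours, so their windows are not separate observations. The nearest measured neighbours of H1-3, the histone genes H2AC8 and H4C6, differed by 0.05 and -0.20. Those of H1-6, H4C3 and H2BC4, differed by -0.70 and 0.03, so that H4C3 ran opposite to H1-6 next to it, with an adjusted p of 0.141.

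Of the 52 core histone genes measured, 1 fell, 0 rose and 51 did not pass in limma, against 0.264% of all clusters called lower, and their median difference was 0.04. The gene that fell was H3C11, a replication-dependent histone H3 gene and the nearest measured neighbour of H1-5 on the side of higher coordinates. It read 9.52 and 9.11 with vector only and 5.28 and 5.47 with H1.3, which makes a log2 difference of -3.94 (SE 0.16, limma adjusted p 0.000868). H1-5 beside it differed by 0.18, and H2AC16, the nearest measured neighbour on the other side of H1-5, by -0.16. The cluster shared by H3C11 and H3C6 differed by -0.18 with a limma adjusted p of 0.804. Copies of H3 genes resemble each other, so signal may be shared between them. H4C14 and H4C15 had the same mean level (10.33), the same difference (0.33) and the same replicate differences. The counts over the 52 core histone genes may thus hold 1 signal under both names. With 1 array left out, an alternative added after the values were seen, the difference of H3C11 lay between -4.15 and -3.74. Those fits called 0 of all clusters, so their adjusted p says nothing on single genes.

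Genes that act on linker histones or on histone mRNA mostly did not pass. In the list of histone gene transcription and mRNA processing, the median difference was -0.03. Of its 24 measured genes 1 fell and 0 rose in limma, where 0.264% of the 21214 named clusters were called lower. The gene that fell was ERI1, the exonuclease that trims the histone stem-loop. It read 7.64 and 7.71 with vector only and 6.39 and 6.71 with H1.3. That is a fall of 1.13 on the log2 scale (SE 0.14, limma adjusted p 0.0338). With 1 array left out it lay between -1.29 and -0.97. The median difference of its 30 nearest measured genes was -0.10. SLBP, the stem-loop binding protein, differed by -0.23, and NPAT, the coactivator of histone genes, by -0.64 with a median of -0.16 over its 30 neighbours. Of 23 chaperones and binding competitors of H1, 0 were called, against 0.504% of the named clusters. An unadjusted limma p under 0.05 was found for 2 of them, against 11.5% of the clusters. HMGN3, a nucleosome-binding protein, differed by -0.42 and the importin gene KPNB1 by 0.31, and the median was -0.09.

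Of 8 replacement core histone genes, 0 were called, against 0.504% of the named clusters. An unadjusted limma p under 0.05 was found for 1 of them, against 11.5% of the clusters. The median difference was -0.13, with H2AX, the variant phosphorylated at DNA breaks, at -0.53 and H2AZ2 at -0.24. Of 30 S phase and cell cycle genes, 0 were called and 2 had an unadjusted limma p under 0.05, beside the same shares. Their median was -0.08, and 25 of the 30 lay below 0, against 8377 of all 18417 genes. That median ran from -0.17 without vector only replicate 2 to -0.03 without vector only replicate 1. TYMS, which makes thymidylate for DNA synthesis, differed by -0.57, and FEN1, which processes Okazaki fragments, by -0.36. The median over the core histones changed sign with the array left out, from -0.11 without H1.3 replicate 1 to 0.18 without vector only replicate 1.

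The genes whose 4-array pattern lay closest to that of H1-3, by root mean square distance between profiles centred on their own means, were FGF9, a fibroblast growth factor, at 0.03, LYPD1 at 0.03, MTURN at 0.06, the collagen gene COL21A1 at 0.06 and the synaptotagmin gene SYT10 at 0.06. FGF9 read 6.16 and 5.42 with vector only and 4.93 and 5.19 with H1.3. Closest to H1-6 were the phosphatase gene DUSP10 at 0.04, the syndecan gene SDC3 at 0.05, LOC389834 at 0.05, the zinc finger gene ZNF568 at 0.06 and MICA, a ligand of the NKG2D receptor, at 0.06. DUSP10 read 6.27 and 6.71 against 7.05 and 7.33. No histone gene was among these 10, and with 4 arrays and 19460 single-symbol clusters to choose from, close profiles are a description only.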

How the data were processed

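The table that the authors deposited holds log2 values of 33297 transcript clusters on 4 arrays. The submitters' processing notes name RMA, run with no stated version, and Affymetrix Expression Console. RMA as published corrects background, equalises the arrays and summarises probes, so single probes, background and saturation could not be examined. The sources used here do not give the genome build or the probe positions, and the platforms named disagree: the series text names an exon array, while the annotation that pairs identifiers with genes is that of an Affymetrix gene array. Which probes each value summarises was therefore not settled. Symbols came from the platform annotation, updated through gene identifiers to RefSeq (19460 clusters with 1 symbol, 1754 with several, 12083 without).

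A two-sided comparison of the groups used lmFit and eBayes of limma 3.58.1 under R 4.3.3, without covariates, over the 21214 clusters with a symbol, with Benjamini-Hochberg adjustment over all of them and a threshold of 0.05. The fit had 2 residual and 5.16 prior degrees of freedom, and the number of arrays limits the precision. A gene is represented by its single-symbol cluster of highest mean. The limma fit was tested on simulated data with independent normal noise, which does not bear on the other steps. Named genes are the 9 variants and the called members of each list or else those with the smallest p. The 5 closest profiles of H1-3 and of the variant with the smallest p are named too. SLBP, NPAT, neighbouring genes, H3C6, H4C14, H4C15, CRY1 and ECT2 were picked with their values known. So were the markers KRT8, PAX8, ESR1, SYCP3, ACR, COL1A1, NKG7 and CLDN5. The variants and lists were chosen with earlier results of these data known. Alternatives changed the moderation, the scaling, the clusters tested, the threshold and the arrays used, or added the replicate number. Figures were drawn with matplotlib 3.10.9.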

Additional observations from a re-analysis of the deposited data

How the results depend on the processing

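No refit called any of the 9 variants (0 in limma, with 1 or 2 at an unadjusted p under 0.05). H1-3 kept a negative difference (leave-one-out -1.07 to -0.30) and H1-6 a positive one where tested, with adjusted p from 0.259 to 0.884 and from 0.0884 to 0.812. The 107 transcript clusters called became 245 with a robust intensity trend, 50 with arrays at one median, 67 after a second quantile normalization, 25 without clusters below the median level, 4 with all transcript clusters and 311 at an adjusted p under 0.10; the cause was not tested. Leave-one-out fits called 0 to 0, with 1292 to 2367 at an unadjusted p under 0.05, assume a lone array to vary as the other group does, and show nothing on single calls. A limma fit with a replicate block left 0 called, with 2195 at an unadjusted p under 0.05, and H1-3 at -0.69 with an adjusted p of 0.480. Replicate differences of the groups correlated at 0.06 over all named clusters, so replicate numbers were not treated as pairs. That value does not describe the core histone genes, whose median replicate differences were 0.32 and 0.28. With the block the SE went from 0.20 to 0.13 for H1-4, from 0.16 to 0.11 for H1-6 and from 0.24 to 0.26 for H1-3. Without 1 array or another, H1-2 spanned -0.14 to 0.18, H1-4 -0.21 to 0.36 and H1-8 -0.19 to 0.28. Both scalings kept the direction of all 9 variants, and the median over all clusters was 0.02 as reported and 0.01 under each. H1-1, H1-5, H1-6 and H1-8, and every testis and endothelial marker, lay below the level filter and have no value there.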

Other observations

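Transcript clusters of relatives and neighbours of the variants that the choice of genes did not include were read as well. H1-9P, the transcribed pseudogene formerly known as the spermatid variant HILS1, read 6.57 and 6.58 with vector only and 6.62 and 6.41 with H1.3, a difference of -0.06 ± 0.13 (SE). H1-10-AS1, the antisense transcript at the start of H1-10, read 6.20 and 6.27 against 6.41 and 6.22, a difference of 0.08 ± 0.12 (SE), whereas H1-10 itself differed by -0.16.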
